A study of Mus musculus with 8 samples.

Results

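The comparison set the vitamin D receptor genotypes VDRmut and VDRwt against each other in dendritic cells stimulated with TNFa. It takes 4 of the 8 arrays of the series, chosen by their labels: VDRwt with TNFa, VDRwt with VD3+TNFa, VDRmut with TNFa and VDRmut with VD3+TNFa. Each VDRmut array was matched to the VDRwt array with the same VD3 state, which gave the TNFa pair and the VD3+TNFa pair. The difference asked for is VDRmut minus VDRwt, and it bears on which transcripts depend on the receptor while the cells respond to an inflammatory cytokine. The other 4 arrays, untreated and VD3 in both genotypes, were used to judge the spread and to see whether a difference was also there without TNFa.

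All cells were grown from the bone marrow of male mice 9 weeks of age. VDRmut mice carry a receptor from which the DNA-binding domain was deleted, and VDRwt mice were their wild-type controls; the strain background and the number of animals are not given in the sources used here. Progenitors of both genotypes were expanded with stem cell factor, Flt3 ligand, GM-CSF, a fused IL-6 protein, an IGF-1 analogue and dexamethasone, a glucocorticoid that the VDRwt cultures received too, and were then turned into dendritic cells with more GM-CSF. On day 7 of differentiation VD3, the hormone 1,25-dihydroxyvitamin D3, was given at 1e-06 M where the label says so, 30 min before TNFa at 50 ng/ml, which stayed for 4 h. Each condition has 1 array, so genotype, animal and culture cannot be told apart. The labels do not say that arrays of a genotype came from separate cultures, so a p-value reflects the scatter among these arrays alone and that scatter may be technical.

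The vitamin D receptor is a nuclear receptor that binds DNA as a partner of the retinoid X receptors and switches target genes such as Cyp24a1 on when the hormone is present. In dendritic cells the hormone is known to hold back maturation, the step in which TNFa raises costimulatory molecules, migration receptors and IL-12. In mouse bone marrow cultures, dendritic cells arise beside macrophages and neutrophil precursors, which share their progenitors.

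The signal is the MAS5 intensity of a probe set, a linear brightness that the authors scaled to a shared level, with a call of Present, Marginal or Absent. Of 22690 probe sets, 12832 were Present on at least 2 of the 8 arrays and were tested, and 7578 genes were described by the brightest tested probe set of each. Between 49.35% and 51.28% of probe sets were Present on each array with TNFa. Markers of the labelled cell type were read: all 11 dendritic cell markers tested were called Present on 3 or 4 of the arrays with TNFa. Cd74, the invariant chain of MHC class II, stood at 6712.8 to 11371.0. Markers of other cells passed the filter too, 9 of macrophages or monocytes and 10 of neutrophils. The markers therefore do not give the share of dendritic cells in the cultures. Male cells were present on each array, since the Y-linked Eif2s3y read 391.9 to 489.3 on the 8 arrays. The 5'/3' signal ratio of the beta-actin control was 0.449 on the VDRmut VD3+TNFa array and 0.444 on the VDRmut untreated array, against 0.781 to 0.889 on the other 6. Scan day and fluidics protocol are recorded for the VDRwt arrays and blank for the VDRmut arrays, so these and genotype cannot be told apart.

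No probe set passed the limma test for genotype with TNFa (0 of 12832, 0.0%, at an adjusted p under 0.05). The lowest adjusted p was 0.114, for Ngp. At an unadjusted p under 0.05 there were 553 probe sets (4.31%), where 641.6 would be met if none differed, with 281 higher (2.19%) and 272 lower (2.12%) in VDRmut. The description that follows therefore rests on sizes. A probe set counted as different when VDRmut and VDRwt were at least 2-fold apart in the same direction in both pairs, the brighter genotype was Present on both arrays, and the signals of the genotypes did not overlap. By this rule 14 of 12832 probe sets were higher (0.109%) and 20 were lower (0.156%) in VDRmut. Among genes, each by its brightest probe set, 12 of 7578 were higher (0.158%) and 5 were lower (0.066%).

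**Figure D1:**
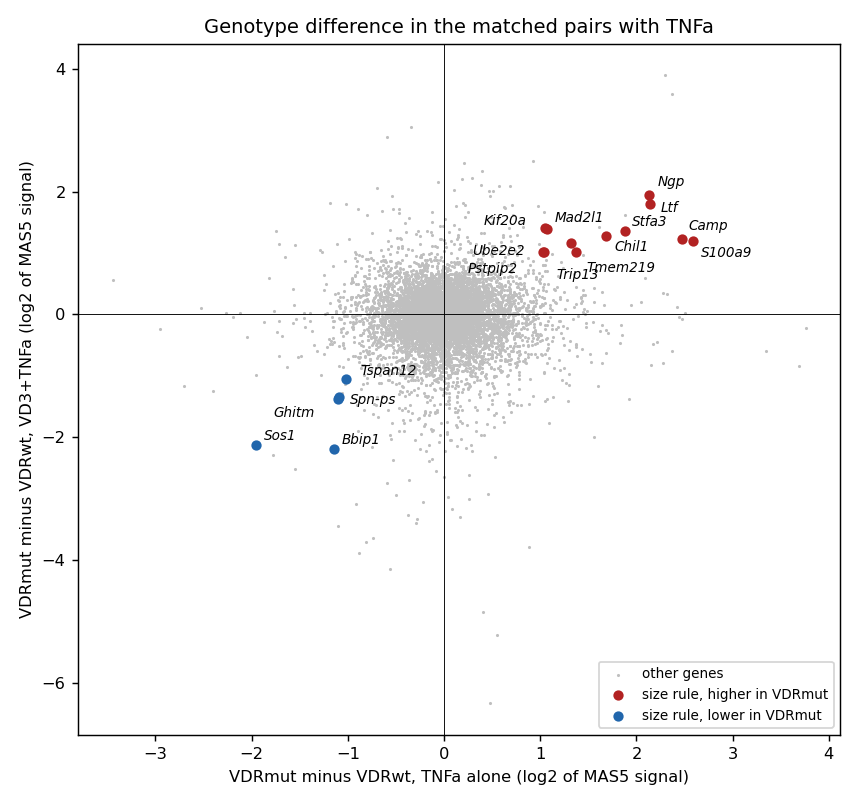
Log2 difference VDRmut minus VDRwt of 7578 genes in the TNFa pair (horizontal axis) and the VD3+TNFa pair (vertical axis), 1 point a gene, 1 array against 1 array on each axis. The 12 genes higher by the size rule are red and the 5 lower ones blue; 13 grey points at least 2-fold apart the same way on both axes were not Present on both brighter arrays or had genotypes whose signals overlapped.

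The genotype pairs were closer to each other than the VD3 states were. The standard deviation of the log2 difference over the tested probe sets was 0.48 between VDRmut and VDRwt with TNFa alone and 0.62 with VD3+TNFa. It was 0.81 between the VDRwt arrays with and without VD3 and 0.83 between such VDRmut arrays. The VD3 states also differed in the 5' 18S ribosomal RNA control, at 9028.2 and 224.0 in VDRwt and 6847.0 and 58.2 in VDRmut. The part of that signal was not tested. A difference of 2-fold or more was reached by 4.29% of probe sets in the TNFa pair and by 7.35% in the VD3+TNFa pair. The pairs did not share most of it: across 12832 probe sets, which are not independent replicates, the genotype differences of the pairs correlated with Pearson r = 0.047 and Spearman rho = 0.044. The VD3+TNFa pair and the untreated pair, which share no array, correlated more (r = 0.298, rho = 0.152), and both hold the VDRmut array of low actin ratio.

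Of the 12 higher genes, the 4 with the largest fitted differences were genes of neutrophil granules or cytosol. Ngp, the neutrophilic granule protein, read 350.6 and 725.5 on the VDRwt arrays with TNFa and VD3+TNFa, and 1531.6 and 2782.1 on the VDRmut arrays in the same order. Ltf, the iron-binding granule protein lactoferrin, read 51.8 (Absent) and 168.2 in VDRwt and 228.5 and 581.5 in VDRmut. Camp, the precursor of the antimicrobial peptide cathelicidin, read 59.4 and 93.2 in VDRwt, both Absent, and 328.0 and 219.1 in VDRmut, both Present. In each of these genes the dimmer VDRmut array was above the brighter VDRwt array. S100a9, a calcium-binding subunit of calprotectin, read 758.5 and 3457.7 in VDRwt and 4569.2 and 7945.1 in VDRmut, so the VDRwt array with VD3+TNFa came close to the VDRmut array with TNFa alone. The fitted log2 differences were 2.03 ± 0.19 (SE) for Ngp, 1.97 ± 0.23 for Ltf and 1.90 ± 0.32 for S100a9, with limma adjusted p of 0.114, 0.192 and 0.790. For Camp the difference was at least 3.6-fold (adjusted p = 0.966), an estimate, since VDRwt was never Present: each VDRwt array entered with its own Camp signal or its lowest signal called Present, whichever was higher.

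The promoters of these 4 genes, those of largest fitted difference on the higher side, are shown. All 4 were higher in VDRmut in all 4 matched pairs, as were 10 of the 12 higher genes in total. The sequences are RefSeq's for GRCm38.p6, from 250 bases before to 50 after the start of each gene, read along the gene's strand: Ngp at chr9:110419558-110419857 (+), Ltf at chr9:111019042-111019341 (+), Camp at chr9:109849407-109849706 (-) and S100a9 at chr3:90695672-90695971 (-). Capitals mark matches of either strand to TTNNGNAA (reverse complement TTNCNNAA), the loose form of the site of the C/EBP factors, which drive granule genes in neutrophil precursors.
Ngp: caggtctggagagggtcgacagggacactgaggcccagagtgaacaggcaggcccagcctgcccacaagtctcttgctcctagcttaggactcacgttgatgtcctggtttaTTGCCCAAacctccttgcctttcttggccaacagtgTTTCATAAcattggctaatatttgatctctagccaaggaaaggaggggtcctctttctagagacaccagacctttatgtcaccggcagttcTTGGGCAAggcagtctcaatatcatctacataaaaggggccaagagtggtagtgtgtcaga
Ltf: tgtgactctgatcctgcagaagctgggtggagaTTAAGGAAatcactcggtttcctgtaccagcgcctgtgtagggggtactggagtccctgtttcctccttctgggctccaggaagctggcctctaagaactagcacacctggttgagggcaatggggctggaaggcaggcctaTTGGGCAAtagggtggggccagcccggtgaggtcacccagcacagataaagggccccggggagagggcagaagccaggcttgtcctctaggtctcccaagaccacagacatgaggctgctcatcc
Camp: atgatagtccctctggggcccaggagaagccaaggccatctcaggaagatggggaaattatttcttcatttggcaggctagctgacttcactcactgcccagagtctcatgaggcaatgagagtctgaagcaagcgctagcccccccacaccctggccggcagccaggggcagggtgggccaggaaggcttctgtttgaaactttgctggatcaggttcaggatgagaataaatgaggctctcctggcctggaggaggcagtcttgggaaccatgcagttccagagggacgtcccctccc
S100a9: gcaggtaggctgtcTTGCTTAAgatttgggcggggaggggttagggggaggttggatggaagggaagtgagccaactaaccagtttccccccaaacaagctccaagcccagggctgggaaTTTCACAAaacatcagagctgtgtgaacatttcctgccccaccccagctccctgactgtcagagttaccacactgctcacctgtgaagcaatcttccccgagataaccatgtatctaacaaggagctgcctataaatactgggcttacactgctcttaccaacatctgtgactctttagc
Ngp held 3 matches, Ltf 2, S100a9 2 and Camp 0, and 40.7% of 32851 promoters of this length hold at least 1. A second motif, the direct repeat bound by the vitamin D receptor with its partner, was searched as 2 copies of GNTCA (reverse complement TGANC) with any 4 letters between them on either strand, and was in 0.7% of promoters and in none of these 4 windows.

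Of 13 neutrophil markers listed, 10 could be tested. Camp was Present on none of the 4 VDRwt arrays of the series, and Mpo and Mmp9 on 1, so these 3 passed the filter through VDRmut. The 7 markers Present on at least 2 arrays of each genotype were higher in VDRmut in both pairs, where 25.5% of the 6560 genes kept that way were. With the other 3 it was 10 of 10, where 24.4% of all genes tested were. Of the 3 not tested, Elane and Prtn3 were on the array but did not pass the filter, and Cebpe was not found by name. By the size rule 3 of the 7 were higher, where 9 of the 6560 genes were. With Camp it was 4 of the 10, where 12 of 7578 genes (0.158%) were. At an unadjusted p under 0.05 in the limma fit, 7 of the 7 were higher, where 159 of the 6560 genes were. With Camp it was 8 of the 10, where 2.36% of all genes tested were higher and 1.57% lower. The median of the 7 was 2.13 in the TNFa pair and 1.20 in the VD3+TNFa pair on the log2 scale, and that of the 10 was 1.94 and 0.99, against -0.01 over all genes for the fitted difference. S100a8, the other calprotectin subunit, read 1111.0 and 2357.1 in VDRwt and 3758.9 and 4069.9 in VDRmut, which is 0.79 in log2 in the VD3+TNFa pair and so just outside the size rule. Cd177, a neutrophil surface protein, read 17.5 (Absent) and 98.1 in VDRwt and 53.6 (Absent) and 261.7 in VDRmut, so its genotypes overlapped across VD3 states. Lcn2, the siderophore-binding lipocalin, read 133.4 and 856.6 in VDRwt and 648.4 and 1088.5 in VDRmut. The log2 difference of Lcn2 was 2.28 in the TNFa pair and 0.35 in the VD3+TNFa pair, where VDRwt was already high. Mpo, the myeloperoxidase of primary granules, differed by 0.08 and 0.37, and the neutrophil collagenase Mmp8 by 1.13 and 0.23. The summed signal of the 10 markers was 3516.2 and 10465.6 on the VDRwt arrays and 13133.8 and 20175.4 on the VDRmut arrays, so the genotypes lay apart and VD3+TNFa was the higher in each. In bulk RNA, more cells of a type and more RNA per cell cannot be told apart.

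**Figure D2:**
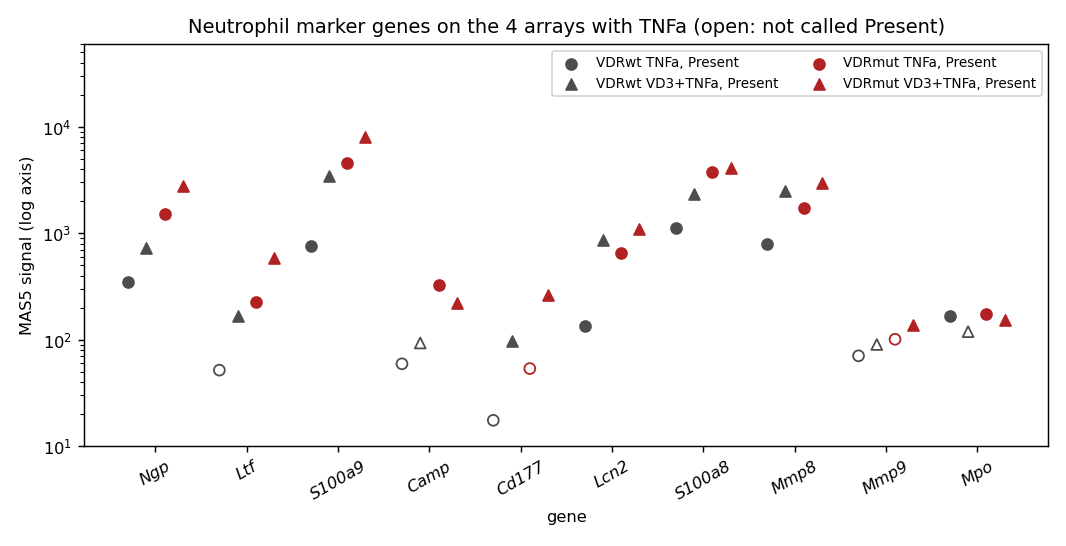
MAS5 signal on a log axis of the 10 neutrophil markers tested, on each of the 4 arrays with TNFa; grey is VDRwt, red is VDRmut, circles are TNFa alone, triangles VD3+TNFa, and open symbols were not called Present. In Ngp, Ltf, Camp, S100a9, S100a8 and Mmp9 each red point lies above each grey one, while in Lcn2, Mmp8, Cd177 and Mpo the genotypes overlap.

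The granule genes differed between the genotypes without TNFa as well. The median of all 10 markers tested was 1.37 in the untreated pair and 1.73 in the VD3 pair. It includes Camp, Mpo and Mmp9, which passed the filter through VDRmut, so it is raised in part by that choice or may be. Ngp and Ltf were the probe sets that the test called for genotype without TNFa (2 of 12832, 0.0156%), with log2 differences of 2.46 ± 0.19 (adjusted p = 0.029) and 2.59 ± 0.23 (adjusted p = 0.0405). The change of the difference from arrays without TNFa to arrays with it was -0.43 ± 0.27 for Ngp, -0.62 ± 0.33 for Ltf and -1.31 ± 0.49 for Camp, with a limma adjusted p of 0.874 each.

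Stfa3 and Chil1 were the other non-mitotic genes of large size on the higher side. Stfa3, a stefin that inhibits cysteine proteases and has close relatives in the mouse genome that the probe set may also read, gave 39.7 and 68.9 in VDRwt and 146.2 and 175.5 in VDRmut. Chil1, a chitinase-like glycoprotein of myeloid cells, gave 43.4 and 55.7 in VDRwt and 139.0 and 134.5 in VDRmut. Both had genotypes that lay apart, with log2 differences of 1.61 and 1.48 and adjusted p of 0.998. Pstpip2, a membrane-bending F-BAR protein whose loss gives bone inflammation in mice, read 259.8 and 271.3 in VDRwt and 528.8 and 549.7 in VDRmut, with the arrays of each genotype close to each other. Its log2 difference was 1.03 and 1.02 in the pairs on its brightest probe set, but 0.62 and -0.01 on another and 0.21 and 0.24 on the dimmest. Tmem219, a transmembrane protein, read 88.8 and 118.0 in VDRwt against 229.2 and 237.4 in VDRmut. Ube2e2, a ubiquitin-conjugating enzyme, read 38.8 and 25.0 against 79.6 and 50.7.

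Pstpip2 and Tmem219 differed with TNFa and not without it by size. Without TNFa their fitted differences were -0.07 and -0.12 on the log2 scale, and the change with TNFa was 1.09 ± 0.32 and 1.30 ± 0.38. Neither change passed the test across all probe sets (limma adjusted p = 0.874 for each). No probe set did (0 of 12832, 0.0%), and 619 (4.82%) had an unadjusted p under 0.05 for that change.

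Of the 12 higher genes, 3 act in mitosis, a grouping made after their values were seen. Mad2l1, a spindle checkpoint protein, read 118.0 and 201.1 in VDRwt and 246.9 and 526.2 in VDRmut. Trip13, the ATPase that takes checkpoint complexes apart, read 75.3 and 135.9 against 188.1 and 303.4. Kif20a, a kinesin of late mitosis, read 28.2 and 40.0 against 58.3 and 105.7. In these 3 genes the genotypes did not overlap, and the fitted log2 differences were 1.22 to 1.24 with adjusted p of 0.998. For Trip13 and Kif20a the difference with TNFa minus that without it was 0.91 ± 0.36 and 0.95 ± 0.49 (adjusted p = 0.874 each).

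Of the cell cycle list 22 of 31 genes tested were higher in VDRmut in both pairs and 5 were lower, where 24.4% and 25.9% of all genes were. Without Birc5 and Ccnb2, which were Present on fewer than 2 VDRwt arrays, 20 of 29 were higher and 5 lower. None of its brightest probe sets passed the size rule. An unadjusted p under 0.05 in the limma fit was met by 9 higher genes and 2 lower ones, where 2.36% and 1.57% of all genes met it. Without Birc5 and Ccnb2 it was met by 7 higher and 2 lower. Among the 6560 genes Present on at least 2 arrays of each genotype, 159 and 84 met it. The list median was 0.20 in the TNFa pair and 0.66 in the VD3+TNFa pair, and 0.16 and 0.63 without Birc5 and Ccnb2. The mitotic genes at the top were higher mainly with VD3+TNFa: Mki67, the proliferation antigen, read 189.8 and 243.8 in VDRwt and 290.9 and 813.1 in VDRmut. Top2a, the topoisomerase that untangles replicated DNA, read 126.1 and 244.7 against 195.0 and 809.8. Ccnb2, a mitotic cyclin that passed the filter through VDRmut, read 119.1 and 81.9 against 176.9 and 349.6. In each of these the VDRmut VD3+TNFa array, one of low actin ratio, was the highest of the 4. The VDRmut untreated array, the other of low ratio, was also high against its VDRwt partner, with a list median of 0.64 in that pair, and the VD3 pair, with no such array, had 0.36. The part of the actin ratio in this group was not tested. The inhibitor Cdkn1b, which holds cells before replication, went the other way, at 346.5 and 266.5 in VDRwt and 300.6 and 75.8 in VDRmut.

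By brightest probe set 12 genes were higher and 5 lower by the size rule. Counted by any probe set past the rule, 14 genes were higher and 18 lower, and many of the lower ones enter only through a dimmer probe set. Ghitm, a protein of the inner mitochondrial membrane, was the brightest, with 2947.5 and 1486.7 in VDRwt and 1376.5 and 569.5 in VDRmut. Its log2 difference was -1.24 ± 0.20 (adjusted p = 0.787), and its second probe set gave -0.93 and -1.14 in the pairs, so it fell just short of the rule there. Bbip1, a subunit of the BBSome that sorts proteins into cilia, read 849.6 and 500.7 in VDRwt and 384.6 and 109.9 in VDRmut, a log2 difference of -1.67 ± 0.29 (adjusted p = 0.808). Both were lower in VDRmut in all 4 matched pairs of the series. Sos1, an exchange factor that activates Ras, read 17.8 and 18 in VDRwt and 4.6 and 4.1 in VDRmut, where it was Absent, and was at least 3.2-fold lower. Tspan12, a tetraspanin, was dimmer still at 9.1 and 8.7 against 4.5 and 4.2, both Absent. Sos1, Tspan12 and Spn-ps are dim, and with signals raised to a floor of 50 the lower count went from 20 to 7 probe sets.

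Another 13 genes were at least 2-fold apart in both pairs but had a brighter genotype that was not Present on both arrays, or genotypes that overlapped. Rnase2a, an eosinophil-associated ribonuclease, read 5.7 (Absent) and 120.9 in VDRwt and 29.5 (Absent) and 1456.6 in VDRmut. The 3 eosinophil markers tested summed to 510.1 and 870.1 in VDRwt and 453.6 and 1447.7 in VDRmut. Their sum too was highest on the VDRmut VD3+TNFa array, but the markers were split. In both pairs 1 of the 3 was higher and 1 was lower in VDRmut. Net1, an exchange factor for RhoA, read 1791.9 and 275.5 in VDRwt and 858.3 and 113.1 in VDRmut. The mutant array was the dimmer of each pair, and a wider gap separated TNFa alone from VD3+TNFa within each genotype. Bex1 read 836.9 and 24.4 against 244.3 and 5.0 (Absent), with the arrays ordered as for Net1. The part of VD3 in these wider gaps was not tested. These genes, and those of the next paragraph, were picked after their values were seen.

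Some differences lay on dimmer probe sets, since 17 of the 34 probe sets past the rule were not the brightest of their gene. For Ccnd2, the cyclin D2 that drives entry into the cell cycle, all 7 probe sets were lower in VDRmut in both pairs and 3 passed the rule; the brightest read 1322.2 and 1339.7 in VDRwt and 504.7 and 1237.4 in VDRmut. Its fitted log2 differences ran from -2.27 to -0.68 over the probe sets. For Irf4, a transcription factor of dendritic cells, the dimmer probe set read 288.3 and 239.1 in VDRwt against 102.7 and 72.9 in VDRmut. Its brightest read 1196.8 and 912.3 against 709.8 and 880.7, so the probe sets disagreed in the VD3+TNFa pair. For Atrx, a chromatin remodeller, all 5 probe sets were lower in both pairs and 1 passed. For Sla, an adaptor that dampens antigen receptor signalling, both probe sets were higher, at 178.0 and 273.0 in VDRwt and 360.9 and 421.4 in VDRmut on the brighter one. Other genes had a brightest probe set near level. Among those counted as lower it stood above 0 for Aplp2 (0.13), Asf1a (0.13), Aldh18a1 (0.12) and 9530068E07Rik (0.06), as fitted log2 differences, and below 0 for the others. Atp6v1e1, counted as higher, gave 2.07 on the dimmer probe set and 0.33 on the brighter.

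Vdr itself was dimmer in VDRmut. Its probe set read 33.2 (Absent) and 104.0 (Present) in VDRwt and 6.3 and 43.7 in VDRmut, both Absent. The log2 difference was -1.82 ± 0.48 (adjusted p = 0.998), and the sources used here do not place the probe set inside or outside the deleted stretch. Cyp24a1, the hydroxylase that degrades the hormone and a direct target of the receptor, was Present on 1 of these 4 arrays, VDRwt with VD3+TNFa, at 59.5, against 36.9 in VDRwt with TNFa and 19.7 and 7.0 in VDRmut. Its log2 difference was -2.0 ± 0.97 (adjusted p = 0.998). Arg1, arginase, is on the alternative activation list, whose fitted median was 0.22, and not on that of the receptor and its targets. It read 27.5 (Absent) and 484.2 (Present) in VDRwt and 9.4 and 85.3 in VDRmut, both Absent. Its log2 difference was -2.03 ± 0.33 (adjusted p = 0.787). Of the list of the receptor and its targets, 7 of 16 genes tested were higher and 3 lower in both pairs, and 6 were higher in the TNFa pair and lower in the VD3+TNFa pair, where 24.4%, 25.9% and 25.2% of all genes were. That list holds Camp, a target in human cells, which is a neutrophil marker here.

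Among the 40 measured genes nearest to Vdr on chromosome 15, 20 on each side, 7 were higher and 13 lower in both pairs, where 24.4% and 25.9% of all genes were. The median log2 difference was -0.07, close to the -0.01 of all genes. Spn-ps, a transcribed pseudogene in RefSeq, was the neighbour past the size rule, with 51.1 and 53.3 in VDRwt and 24.0 and 21.0 in VDRmut, both Absent. It was at least 2.32-fold lower (adjusted p = 0.998). Without TNFa its fitted difference was 0.42, and the change was -1.63 ± 0.58 (adjusted p = 0.874).

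The maturation genes that TNFa acts on differed little between genotypes when the VD3 states were put together. The median of 26 genes of maturation and costimulation was -0.03, with 3 higher and 3 lower in both pairs. Their direction turned between the pairs. Of the 26, 14 (53.8%) were lower in VDRmut with TNFa alone and higher with VD3+TNFa, where 24.5% of all genes were. Another 6 (23.1%) turned the other way, where 25.2% of all genes did. The turn was not particular to this list. It was made by 48.4% of 31 heat shock and chaperone genes, 45.5% of 11 dendritic cell markers and 42.9% of 14 NF-kB genes. In those lists 12.9%, 9.09% and 0.0% turned the other way. The dendritic cell markers include Ccr7 and Cd83, so that list is not separate from the genes named next. Cd40, the receptor for T cell help, read 1766.1 in VDRwt and 1065.9 in VDRmut with TNFa alone, and 201.9 and 339.1 with VD3+TNFa. Ccr7, the receptor that guides dendritic cells to lymph nodes, read 4180.2 and 3191.9 with TNFa alone and 599.1 and 1161.5 with VD3+TNFa. Serpinb9, which protects the cells from granzyme B, read 2816.6 and 1885.8, then 349.2 and 799.5. Cd83 read 5481.9 and 4618.7, then 926.8 and 1488.2. In all of these the arrays with VD3+TNFa were far below those with TNFa alone in both genotypes, and the gap was smaller in VDRmut. Each of these 4 values is 1 array, so the turn has no test. Ptgs2, the inducible cyclooxygenase, was the gene of the list furthest apart, at 99.3 and 90.9 with TNFa alone and 227.1 and 44.6 with VD3+TNFa.

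**Figure D3:**
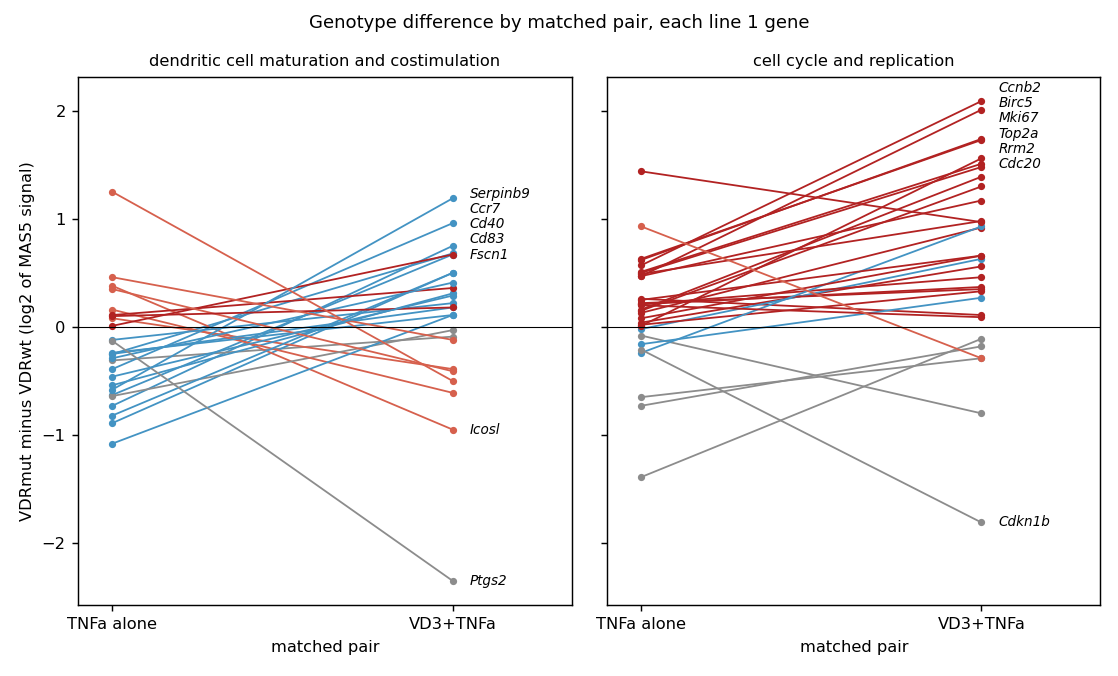
Log2 difference VDRmut minus VDRwt in the TNFa pair and the VD3+TNFa pair, 1 line a gene, for 26 maturation genes (left) and 31 cell cycle genes (right). Blue lines run from lower to higher, orange from higher to lower, red stay above 0 and grey stay below 0; 14 maturation genes are blue and 22 cell cycle genes are red.

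Cytokine genes split. Il6 was lower in VDRmut in both pairs, at 303.3 and 130.4 in VDRwt and 148.2 and 59.0 in VDRmut, with genotypes that overlapped across VD3 states and a log2 difference of -1.09 ± 0.32 (adjusted p = 0.998). Il12b, the p40 subunit of IL-12, was nearly level, at 2572.6 and 2273.2 with TNFa alone and 134.2 and 119.4 with VD3+TNFa. Il18 was higher, at 209.8 and 217.6 in VDRwt and 568.2 and 285.0 in VDRmut. Il1b read 1638.8 in VDRwt and 3390.9 in VDRmut with TNFa alone, and 4315.5 and 3674.3 with VD3+TNFa. The list median was -0.01 over 16 genes.

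Lists of macrophage and antigen uptake genes had medians above 0 with TNFa alone and nearer 0 with VD3+TNFa, and 0 of their genes passed the size rule. The medians in the pairs were 0.80 and 0.22 for 9 macrophage or monocyte markers, 0.77 and -0.05 for 16 Fc and complement receptors and components, and 0.64 and 0.09 for 21 C-type lectins and scavenger receptors. C1qb, a chain of the complement protein C1q, read 322.1 and 863.0 with TNFa alone and 630.4 and 763.9 with VD3+TNFa, VDRwt first. Mgl2, a galactose-binding lectin, read 59.2 (Absent) and 140.8, then 782.1 and 1011.3. Msr1, a scavenger receptor, read 570.1 and 1320.8, then 814.5 and 996.4. In these genes the VDRwt array with TNFa alone was the lowest of the 4. The integrin Itgam was level with TNFa alone, at 157.4 and 192.9, and lower in VDRmut with VD3+TNFa, at 1987.8 and 427.9. Of macrophage markers 5 of 9 were higher in both pairs, where 24.4% of all genes were, and their medians without TNFa were -0.18 and -0.21.

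**Figure D4:**
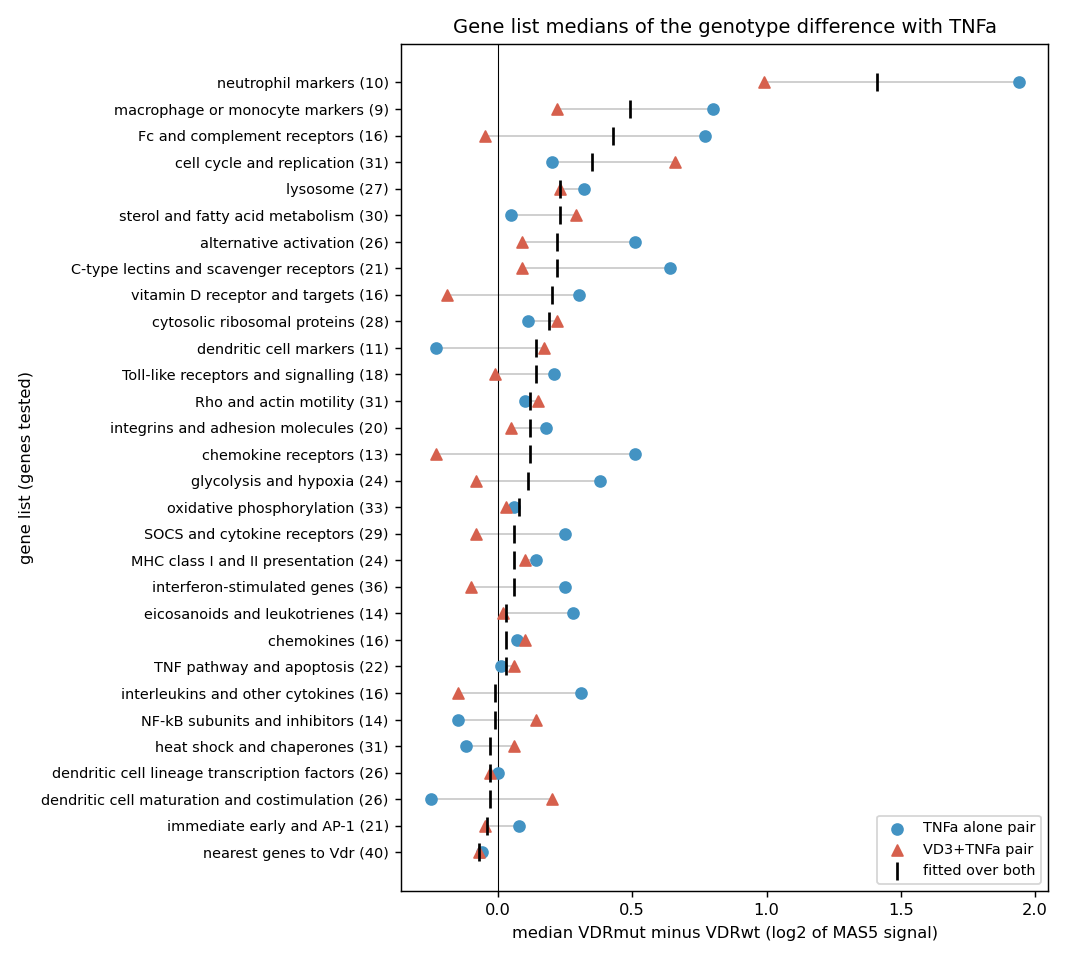
Median log2 difference VDRmut minus VDRwt of each gene list with at least 9 genes tested (number in brackets), for the TNFa pair (circles), the VD3+TNFa pair (triangles) and the fit over both (bars). Neutrophil markers stand at 1.94 and 0.99, the cell cycle list at 0.20 and 0.66, and the maturation list at -0.25 and 0.20. With only genes Present on at least 2 arrays of each genotype, these are 2.13 and 1.20, 0.16 and 0.63, and -0.25 and 0.22.

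The remaining lists of at least 9 genes tested had fitted medians between -0.07 and 0.23. NF-kB subunits and inhibitors stood at -0.01, the TNF pathway at 0.03, chemokines at 0.03, interferon-stimulated genes at 0.06, MHC presentation at 0.06, oxidative phosphorylation at 0.08, and lysosome and sterol genes at 0.23 each. Markers of B cells, T or NK cells and erythroid cells had 1 gene tested each, the others of those lists being Present on fewer than 2 arrays or not on the array by name.

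Some genes differed in 1 pair alone, by at least 2 in log2 size there and under 0.5 in the other. With TNFa alone 5 genes were higher and 4 lower. Pglyrp1, a peptidoglycan-binding protein of neutrophil granules, read 34.1 (Absent) in VDRwt and 185.2 in VDRmut in the TNFa pair, and 203.3 and 196.3 in the VD3+TNFa pair. C1ra, a complement protease, read 17.6 (Absent) and 87.8, then 107.2 and 134.9. With VD3+TNFa 6 genes were higher, among them the mitotic regulator Nde1 at 27.7 and 127.5, Birc5 (survivin) at 80.4 (Absent) and 323.7, and the lipase inhibitor Angptl4 at 3.2 (Absent) and 14.9, VDRwt first. On the lower side 27 genes differed with VD3+TNFa, and 11 of the 27 were Absent on that VDRmut array. The nuclear RNA Malat1 read 329.9 in VDRwt and 31.3 in VDRmut, and Sbno1 633.4 and 66.3, all Present. The growth factor Hbegf read 273.0 and 27.2 (Absent). Phip read 120.4 and 1.5, the transcription factor Zbtb20 51.9 and 1.8, and the keratin-associated Krtap19-1 16.6 and 1.7, with the VDRmut signals Absent and below 5.9, that array's lowest signal called Present, so the sizes of these 3 differences have no order. Of the 27, 19 were also at least 2-fold lower in the untreated pair and 1 in the VD3 pair. Of all 289 genes at least 2-fold lower in the VD3+TNFa pair, 28.7% were so in the untreated pair and 7.96% in the VD3 pair. The VDRmut arrays of the VD3+TNFa and untreated pairs are the ones of low actin ratio, and the part of that ratio was not tested.

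**Figure D5:**
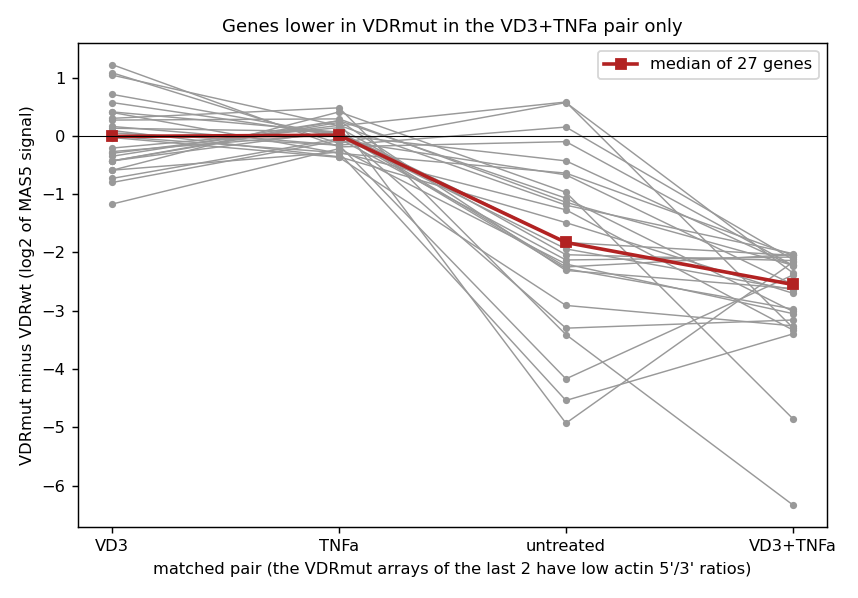
Log2 difference VDRmut minus VDRwt in the 4 matched pairs for the 27 genes lower in VDRmut in the VD3+TNFa pair and under 0.5 in size in the TNFa pair; grey lines are genes and the red line is their median. For 3 genes the VDRmut signal in the VD3+TNFa pair lies below that array's lowest Present signal. The median is -0.01 in the VD3 pair, -1.83 in the untreated pair and -2.55 in the VD3+TNFa pair.

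By the same size rule, 45 probe sets were higher (0.351%) and 30 lower (0.234%) in VDRmut without TNFa. Of the 14 higher with TNFa, 7 were also higher without it, and of the 20 lower with TNFa 0 were lower without it. Of the 12 higher genes 10 were higher in all 4 matched pairs, and of the 5 lower genes 2 were lower in all 4. The size rule fixes the direction in the pairs with TNFa, so only the pairs without TNFa were free to vary. No share of all genes stands beside these counts.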

How the data were processed

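RNA of cells of each genotype and treatment was hybridised, 1 array each, to 8 Affymetrix MOE430A arrays. Each deposited table lists, per its file header, the linear intensity (Signal) of every probe set beside its detection call; MAS5, with no version, comes from the submitters' processing notes. Detection calls and experiment records (a unit of other) were used as deposited. The arrays shared a trimmed mean of about 200.1. No genome build is given in the sources used here apart from the reference tables (GRCm38.p6).

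Signals were brought to the common 2% trimmed mean (factors 0.99997 to 1.00003), 3 signals listed at 0 were raised to 0.1, and log2 was taken. The 64 control probe sets were left out, and probe sets Present on at least 2 of 8 arrays were kept. Names came from the platform annotation: 20393 probe sets had 1 symbol, 691 several and 1606 none, and 20364 matched a current RefSeq gene. Genes are shown by the tested probe set of highest mean signal.

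Fits used limma 3.58.1 in R 4.3.3 (lmFit, eBayes with a trend) on all 8 arrays, with treatment and a genotype coefficient for arrays without and with TNFa, which leaves 2 residual degrees of freedom. P-values were adjusted by Benjamini-Hochberg over 12832 probe sets. The fit was tested on simulated data. Named genes were Vdr, Cyp24a1, every gene past the size rule, up to 4 members of each list, extreme genes of 1 pair (up to 6 in each direction) and neighbours of Vdr past the rule. Other list members and genes shown by dimmer probe sets were named after their values were seen. Members, lists and rules were chosen with earlier results of these data known. Lists were not tested as sets. A size of at least N-fold is an estimate, because the lowest Present signals (3.1 to 8.4) lie below many Absent ones. The number of arrays limits the precision. Alternatives tried were other filters, floors, normalization, variance model, source of values, arrays in the fit and each array left out.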

Additional observations from a re-analysis of the deposited data

Results flagged for a closer look

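The 18S ribosomal RNA controls, which were left out of the tests above, were far above both untreated arrays on 3 of the 4 arrays with TNFa. The 5' probe set read 9028.2 on the VDRwt TNFa array, 6847.0 on the VDRmut TNFa array and 224.0 on the VDRwt VD3+TNFa array. The 3' probe set read 8510.7, 7128.9 and 1121.3 on these arrays. On the VDRmut VD3+TNFa array they read 58.2 and 227.3. The TNFa pair therefore holds 2 arrays of high 18S signal. In the VD3+TNFa pair the VDRwt array was well above the VDRmut array. In each genotype the array with TNFa alone was far above that with VD3+TNFa. The part of the 18S signal in the differences between genotypes or between VD3 states was not tested.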

How the results depend on the processing

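No paired analysis was possible because the labels give no replicate numbers to block on. Matching by VD3 is part of the main fit. On the 4 arrays with TNFa, the fit with a VD3 term keeps it and the fit without a VD3 term does not. The count of genotype calls with TNFa stayed at 0 in the fits on the 4 arrays with TNFa, with other filters, floors and variance models, with quantile normalization and with the series matrix values. Leaving out 1 array gave 0 to 15 calls. The 15 came without the VDRwt TNFa array and again without the VDRmut TNFa array, and then rest on the VD3+TNFa pair alone. The change of the genotype difference with TNFa had 0 calls in each of the fits that also use arrays without TNFa. The fits on the 4 arrays with TNFa cannot give it. The count higher by the size rule was 14, and it was 65 at 1.5-fold and 0 at 4-fold, 209 with the TNFa pair alone and 217 with the VD3+TNFa pair alone. The count lower was 20, and it was 111 at 1.5-fold, 1 at 4-fold, 7 with signals raised to 50, 219 with the TNFa pair alone and 573 with the VD3+TNFa pair alone. None of the 19 named genes turned sign in an alternative run. Tspan12 became 0.0 with signals raised to 16 or 50, and Sos1 became 0.0 with signals raised to 50. For the 17 genes picked by the size rule, the rule had fixed the sign in both pairs. Fits on fewer arrays use the same pair values, so they could not turn that sign. The medians of the neutrophil and cell cycle lists stayed above 0 in each. The median of the vitamin D receptor and target list was 0.20, and -0.19 without either array with TNFa alone. A fit without both arrays of low actin ratio could not be fitted, since it leaves no residual degrees of freedom. Absent signals give bounds, not levels.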
